A study of Mus musculus with 8 samples.

Results

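The potassium channel genes are the 77 rows of the sense gene table whose symbol begins with Kcn and that held at least 10 reads in at least 2 of the 8 libraries. They are 77 of 91 such rows, and of 15217 genes that passed the same read minimum among 20741 in the table. The symbol chose them, not their course over the day. Because Kcnb2 and Kcnh8 have 2 rows each, the 77 rows carry 75 symbols. The 14 Kcn rows under the minimum (Kcna3, Kcna7, Kcna10, Kcne2, Kcne3, Kcng2, Kcng3, Kcnj15, Kcnk7, Kcnk12, Kcnk18, Kcnq1, Kcnrg and Kcnv2) were not tested. The highest mean among them was 6.38 reads, and the lowest among the 77 was 6.88.

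Polyadenylated RNA of the suprachiasmatic nucleus (SCN), the hypothalamic pacemaker of the mouse, was sequenced every 6 h over 2 days. The animals were C57/BL6 mice with no named genotype or treatment. They had been held under a cycle of 12 h light and 12 h dark, then moved to constant darkness, so every library comes from darkness. Each of the 8 libraries is 1 pool of equal RNA from 3 mice, and neither age nor sex is stated in the labels. The 4 groups are circadian time (CT) 22, CT4, CT10 and CT16, each with 1 library from the first cycle (22 to 40 h) and 1 from the second (46 to 64 h). The study states no replicates, so taking libraries 24 h apart as a group of 2 is a choice made here. Every p-value thus measures the spread between pooled libraries, not between mice. CT4 and CT10 are called day, CT16 and CT22 night, CT10 and CT16 dusk, and CT22 and CT4 dawn. Reads below are listed as CT22, CT4, CT10 and CT16.

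SCN neurons fire faster by day than by night, and potassium channels set much of that course. Fast delayed rectifiers of the Kv3 class keep spikes short. A-type Kv4 channels space the spikes, BK channels (pore gene Kcnma1) add a large outward current at night, and leak channels of the Kcnk family hold the resting potential. Channel activity also depends on phosphorylation, trafficking and accessory subunits, which RNA counts do not show.

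Depth was nearly the same in all libraries, at 11123610 to 11131890 reads in the gene table. Of the 19 core clock genes tested, 5 passed the 24-h test, with Per1 2.45-fold and Dbp 3.12-fold from trough to peak. All 9 SCN markers listed, Avp, Vip and Six6 among them, were present, at a sum of 538 to 1008 CPM (read counts scaled to library depth). That sum was 538 to 675 in the dusk and 702 to 1008 in the dawn libraries. The 10 neuron markers summed to 3625 to 4907 CPM and the 12 oligodendrocyte markers to 5108 to 15971 CPM, with no marker of either list at 0. The oligodendrocyte sum was lowest in CT4 replicate 1 and highest in CT16 replicate 2. In bulk tissue, fewer cells of a type and less RNA per cell cannot be told apart. The log2 ratio of reads in the 5′ exons to the 3′-most exon was taken for 7270 genes, less each gene's mean over the 8 libraries. Its median stood at 0.24 in CT22 replicate 1, as a departure from that mean. The other 7 libraries lay between -0.07 and 0.01.

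Channel transcripts made up 0.311% of gene reads, between 0.291% and 0.328% in single libraries, and 5 genes held 46.4% of them. Kcnj10, which encodes the inward rectifier Kir4.1 of glial cells, was far above the rest at 93.6 RPKM (gene reads per kb of exon, scaled to depth), with 82.5 to 109 over the 8 libraries. Kcnip4 (a Kv4 accessory subunit), Kcnd2 (Kv4.2) and Kcna6 (Kv1.6) were among the next, at 23.0, 22.5 and 22.3 on that scale. Their ranges overlapped each other but not that of Kcnj10. Kcnc1 (Kv3.1) followed at 18.4 and Kcnj9 (Kir3.3) at 18.2, with overlapping ranges. In all, 18 genes reached 10 on this scale, 19 stayed under 1, and the median was 2.51. Kcna2 (0.25) and Kcnma1 (0.50) are among the 19, but their gene rows count fewer reads than a single exon of theirs. Their levels here are thus too low.

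**Figure D1:**
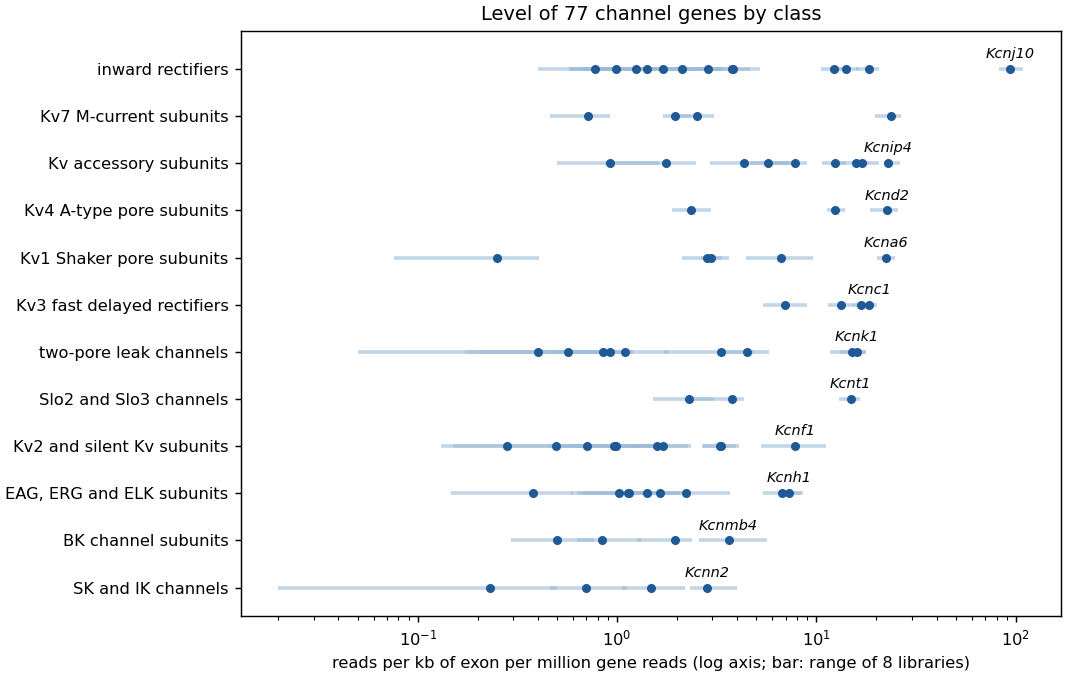
Mean level of each of the 77 channel genes, in RPKM on a log axis, by class, with bars from the lowest to the highest of 8 libraries. Leading genes of several classes are named, and Kcnj10 at 93.6 is apart from every other gene.

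No channel gene passed the test for a 24-h course. A model with a day-night and a dusk-dawn term, tested together in edgeR across all genes, called 0 of 77 at an adjusted p under 0.05, against 0.112% of all genes (17 of 15217). At an unadjusted p under 0.05 there were 5 of 77 (6.49%), below the 8.6% of all genes, and DESeq2 also called 0. The lowest edgeR adjusted p was 0.408, for Kcnma1. For day against night, 0 of 77 were called against 0.105% of all genes, and 7 of 77 (9.09%) unadjusted against 7.72%. For dusk against dawn, 0 were called against 0.0197%, and 4 (5.19%) unadjusted against 7.84%. DESeq2 called 0 in both.

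The fitted differences were small for the well-read genes and wide for the others. The median day-to-night fold of the 77 was 1.01 and the median dusk-to-dawn fold 0.990, beside 0.994 and 1.0 over all genes. By sign alone, 39 were higher by day and 37 higher at dusk. In the 8 genes with a mean of 1000 reads or more, the trough-to-peak ratio ran from 1.13 to 1.27. In the 37 genes under 100 reads it ran from 1.10 to 4.06. For 33 genes both 95% intervals lay within 1.5-fold in either direction, and for 52 within 2-fold. For the other 25 an interval reached 2-fold, so a change of that size was not excluded for them.

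**Figure D2:**
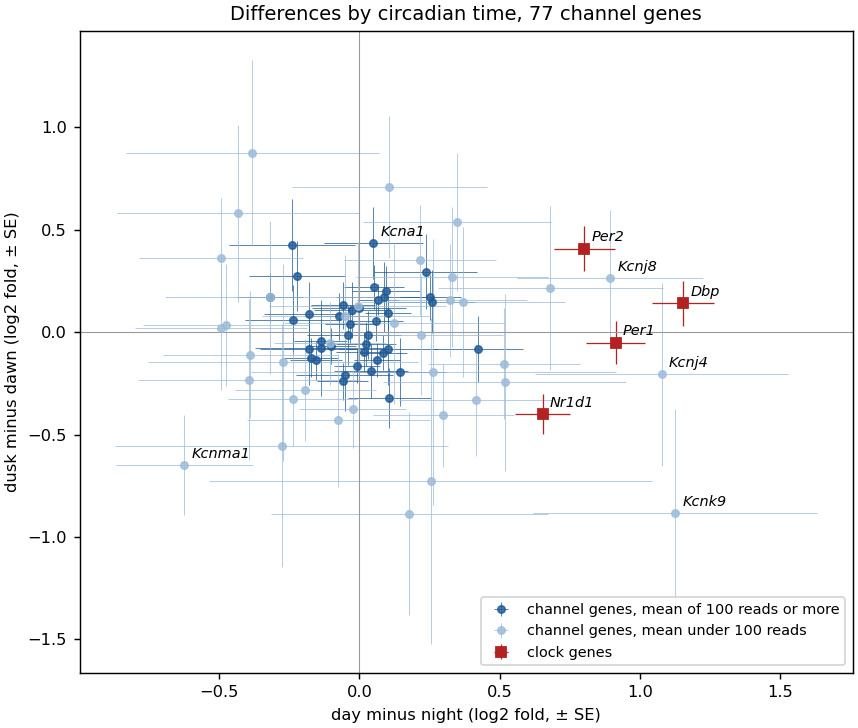
Day minus night against dusk minus dawn difference (log2 fold ± SE) for each of the 77 channel genes, with 4 clock genes as squares. The well-read channel genes lie near 0 on both axes, and the points far out, such as Kcnk9 and Kcnj4, have wide error bars.

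No channel gene had 4 day libraries apart from its 4 night libraries, while 4.65% of all genes did. Dusk and dawn libraries were apart for 3 of 77 (3.9%), against 3.61% of all genes. These were Kcna6, higher at dusk, and Kcnc2 and Kcnmb1, higher at dawn. The SCN marker sum was also lower in the dusk libraries, and its part in these differences was not tested. In 10 of 77 the highest and the lowest time were the same in each cycle (13%), against 11.2% of all genes. Among the 10 were Kcnma1, Kcna1, Kcna6 and Kcnd2. The authors' deposited table gives a JTK rhythm test, in which 2 of the 77 had an adjusted p under 0.05, against 3.36% of genes past the minimum. These 2 are Kcnma1 with a lag of 23.5 h and Kcna6 with a lag of 13 h, both at an adjusted p of 0.022 and a q-value of 0.978 in the authors' deposited table.

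BK channels open with depolarisation and calcium, and their pore gene Kcnma1 (chr14:24117855-24622542, mm9) had the lowest p of the set in the 24-h test. It held 81, 58, 34 and 40 reads in the first cycle and 75, 44, 31 and 60 in the second. Both CT22 libraries were above all others and both CT10 libraries were the 2 lowest. The fitted trough-to-peak ratio was 2.42, with a peak at CT22.1 ± 1.0 (SE), a day-to-night fold of 0.65 (95% interval 0.45 to 0.93) and an edgeR adjusted p of 0.408. Night libraries nevertheless ran from 40 to 81 reads and day libraries from 31 to 58, so they overlapped.

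Reads of other parts of Kcnma1 gave a partly different order. Its best-read exon (chr14:24125569-24128486, mm9) held 90, 80, 52 and 122 reads, then 137, 61, 59 and 105. That exon had 90 to 137 reads by night and 52 to 80 by day, with no overlap, and the gene row counts fewer reads than this exon alone, at a mean of 52.9 against 88.3. The share of all exons with such a gap was not counted. In a fit of the best-read exon of each gene, its edgeR adjusted p was 0.268 for the 24-h course and 0.150 for day against night. Tested alone among 109588 exons, it had an edgeR adjusted p of 0.457. Of 271 channel exons tested this way 0 were called, against 0.0201% of all exons, and 25 (9.23%) had an unadjusted p under 0.05, against 6.13%. Junction reads of Kcnma1, which span 2 exons, were 70, 74, 15 and 22, then 57, 20, 31 and 26. In a fit of junction reads per gene, its dusk-to-dawn fold was 0.43 (edgeR adjusted p 0.333), with overlapping libraries. The day-to-night fold of these reads was 0.83 (edgeR adjusted p 0.948). Its introns held 168, 104, 192 and 89 reads, then 118, 76, 84 and 122, highest at CT10 in the first cycle and at CT16 in the second.

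Among the BK accessory subunits, Kcnmb4 (β4, the neuronal form) held 165, 102, 110 and 75 reads, then 88, 80, 110 and 114. Its first library was the highest and the others overlapped. Kcnmb1 (β1) held 110, 118, 96 and 93, then 100, 121, 64 and 94, so its dawn libraries (100 to 121) were just above those of dusk (64 to 96). Its dusk-to-dawn fold was 0.77, with an edgeR adjusted p of 0.666. Kcnmb1 lies within the span of Kcnip1 on the opposite strand, where means of 620 reads for Kcnip1 and 99.5 for Kcnmb1 were counted.

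Kv3 channels repolarise the spike within a short time and allow fast firing. Kcnc1 (Kv3.1) held 2209, 2186, 1752 and 2040 reads, then 2001, 2214, 2011 and 1884. Day and night libraries overlapped, and the day-to-night fold was 0.99 (95% interval 0.88 to 1.12). Kcnc2 (Kv3.2) held 1276, 1269, 1184 and 1224, then 1249, 1470, 1233 and 1148. Its 4 dawn libraries (1249 to 1470) were all above its 4 dusk libraries (1148 to 1233). The size of this was small, a dusk-to-dawn fold of 0.91 (95% interval 0.80 to 1.03), with an edgeR adjusted p of 0.715. The day-to-night fold of Kcnc2 was 1.04 (0.92 to 1.18), so for both genes a 1.5-fold day-night change lies outside the 95% interval.

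**Figure D3:**
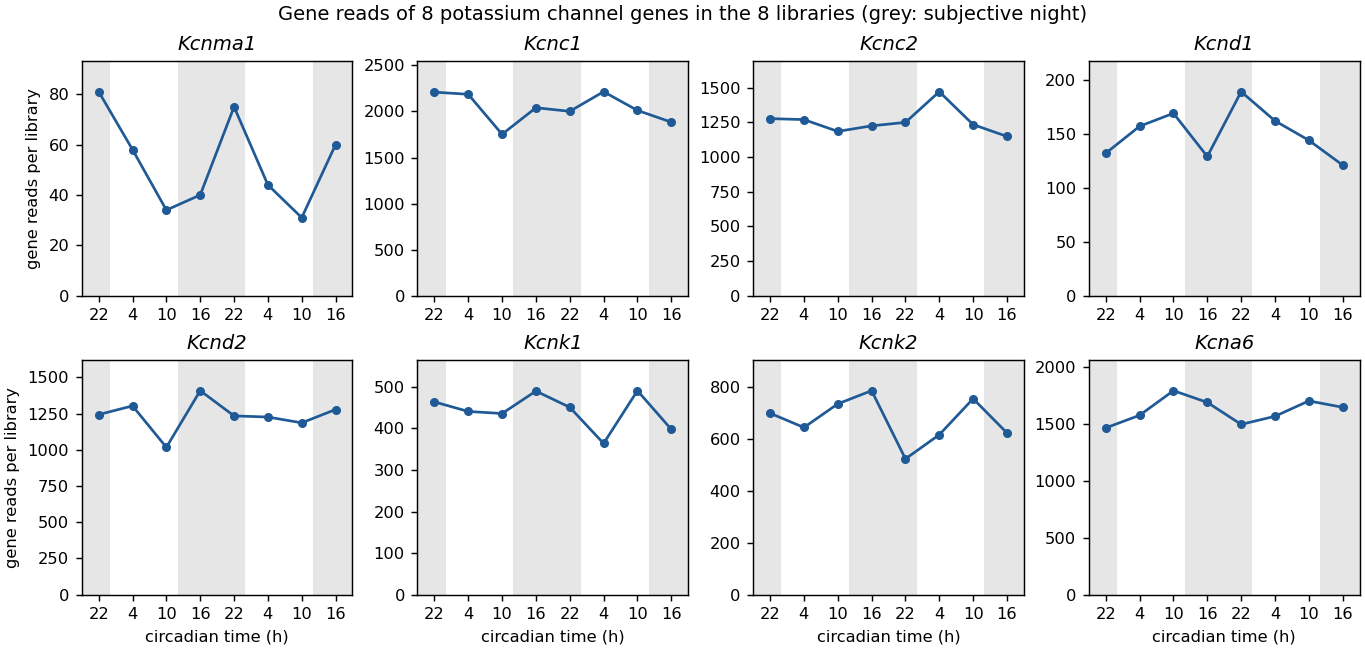
Gene reads per library (y axis from 0) against circadian time over the 2 cycles for Kcnma1, Kcnc1, Kcnc2, Kcnd1, Kcnd2, Kcnk1, Kcnk2 and Kcna6, with subjective night in grey. Only Kcnma1 shows a swing above 2-fold (31 to 81 reads), repeated at CT22 in both cycles.

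Kv4 channels carry the subthreshold A-type current. Kcnd1 (Kv4.1) held 132, 157, 169 and 129 reads, then 189, 162, 144 and 121. Its highest library was at CT10 in the first cycle but CT22 in the second. Kcnd2 (Kv4.2) held 1243, 1303, 1017 and 1408, then 1234, 1226, 1186 and 1278. CT10 was lowest and CT16 highest in both cycles, yet the day-to-night fold was only 0.91 (95% interval 0.79 to 1.04) and the edgeR 24-h adjusted p 0.789. Kcnd3 (Kv4.3) held 1212 to 1498 reads with a median of 1308, and a day-to-night fold of 0.93. Of the accessory subunits that shape Kv4 gating, Kcnip4 held 777 to 933 reads (median 806.5), with a day-to-night fold of 0.98 (0.85 to 1.12). Kcnip1 ranged more widely, from 447 to 714 reads.

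Kcnk channels carry potassium leak current. Kcnk1 (TWIK-1) held 464, 441, 436 and 490 reads, then 451, 364, 491 and 398. The highest library was CT16 in the first cycle and CT10 in the second, and the day-to-night fold was 0.95 (95% interval 0.80 to 1.13). Kcnk2 (TREK-1) held 700, 645, 736 and 787, then 524, 617, 756 and 624. Its dusk libraries (624 to 787) overlapped those of dawn (524 to 700), with a dusk-to-dawn fold of 1.17 (0.99 to 1.37) and an edgeR adjusted p of 0.652. Kcnk9 (TASK-3) was read far less, at 22, 27, 27 and 7, then 11, 21, 12 and 3. Day libraries held 12 to 27 and night libraries 3 to 22, and a day-to-night fold of 2.18 had an interval from 1.03 to 4.60. The summed reads of the 9 Kcnk genes ran from 1358 to 1774.

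Reads outside the 3′ end of Kcnk2 separated dusk from dawn, a look taken after the gene values were seen. Its 6 exons outside the 3′-most one held 255, 204, 392 and 326 reads, then 228, 212, 263 and 303, at 263 to 392 for dusk and 204 to 255 for dawn. Junction reads were 95, 75, 112 and 136, then 83, 81, 118 and 119, also apart. Reads across a junction are also counted in exons, so these sums are not independent of each other. The exon nearest the 3′ end held 533, 515, 545 and 618, then 407, 501, 590 and 480, and its dusk and dawn libraries overlapped. The dusk-to-dawn fold was 1.45 in both, with edgeR adjusted p = 0.395 for the exons and 0.422 for the junctions. Its introns held only 12 to 33 reads and did not separate dusk from dawn.

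**Figure D4:**
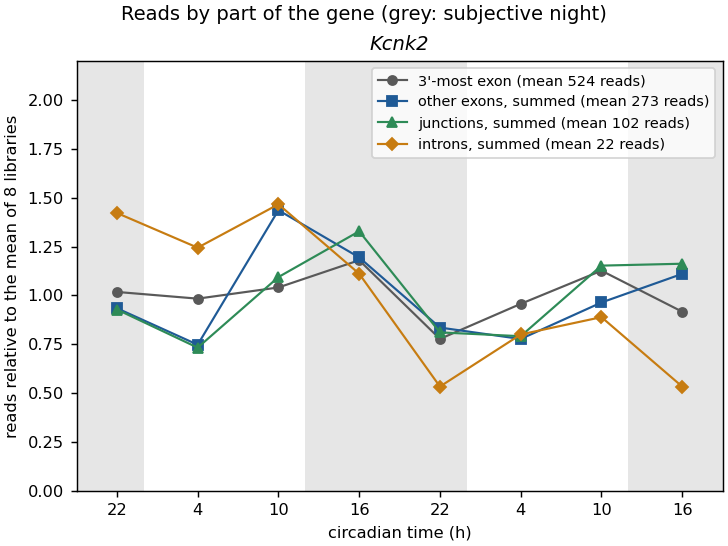
Reads of Kcnk2 by part of the gene (3′-most exon, other exons, junctions and introns), each divided by its mean over 8 libraries, against circadian time. Exons outside the 3′-most one and junctions are higher at CT10 and CT16 than at CT22 and CT4.

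No channel gene passed the test on such reads. Of 44 genes with enough junction reads 0 were called for dusk against dawn, against 0.0488% of all genes. At an unadjusted p under 0.05 there were 7 (15.9%), against 8.1% of all genes. The 24-h test on junction reads gave 4 at that p (9.09%), beside 970 of 12297 genes. Day against night gave 1 (2.27%), beside 765 genes. Both tests called 0 channel genes, and the share of all genes they called was not counted. Dusk and dawn libraries were apart in 4 of the 44 (9.09%), Kcnj5, Kcnh8 and Kcnk2 among them, beside 4.44% of all genes. Of 52 genes with exon reads outside the 3′-most exon 0 were called for dusk against dawn, against 0.0156%. At an unadjusted p under 0.05 there were 7 (13.5%), against 8.01%. The 24-h test on these exon reads gave 4 at that p (7.69%), beside 945 of 12782 genes. Day against night gave 1 (1.92%), beside 733 genes. Here too both tests called 0 channel genes, with the share called over all genes not counted. Dusk and dawn libraries were apart in 4 of the 52 (7.69%), Kcnk2, Kcnh1 and Kcnip3 among them, beside 4.3% of all genes.

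Kv1 channels are low-threshold delayed rectifiers. Kcna1 (chr6:126585739-126595973, mm9), the Kv1.1 gene, held 633, 486, 1050 and 557 reads, then 799, 542, 964 and 790. CT10 was highest and CT4 lowest in both cycles. Dusk libraries (557 to 1050) overlapped dawn libraries (486 to 799). The dusk-to-dawn fold was 1.35 (95% interval 1.04 to 1.76), with an edgeR adjusted p of 0.586.

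Kcna1 moved with the oligodendrocyte markers. The oligodendrocyte score, the mean centred log2 CPM of the 12 markers, was -0.03, -0.92, 0.59 and -0.34, then 0.08, -0.21, 0.35 and 0.49. CT4 replicate 1 was lowest and CT10 replicate 1 highest in both the score and Kcna1. By summed marker CPM the highest library was instead CT16 replicate 2 (15971, against 15314 in CT10 replicate 1), which held 790 Kcna1 reads. With this score beside the 24-h terms, Kcna1 rose by 0.74 ± 0.15 (SE) log2 per unit of score, with an edgeR adjusted p of 0.0231. It was the only 1 of 77 channel genes called for the score, against 1.01% of all genes (154 of 15217). With the score in the model, the trough-to-peak log2 ratio of Kcna1 was 0.18, against 0.62 without it. The markers themselves had a median dusk-to-dawn fold of 1.47, and all 12 were higher at dusk. In the edgeR 24-h test 11 of them had an unadjusted p under 0.05, and 0 were called. Over these 8 libraries, a change of Kcna1 with the score and one with circadian time cannot be told apart.

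**Figure D5:**
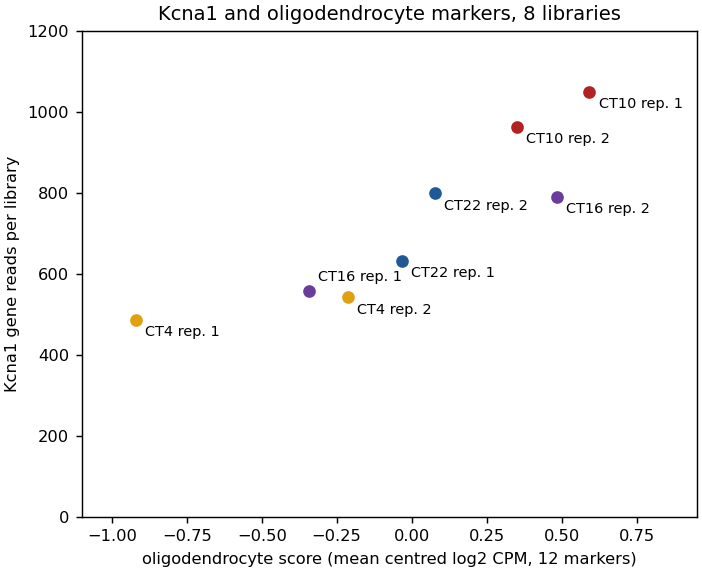
Kcna1 gene reads (y axis from 0) against the oligodendrocyte score in the 8 libraries, colored by circadian time and named by replicate. CT4 replicate 1 (486 reads, score -0.92) and CT10 replicate 1 (1050 reads, score 0.59) are the ends of both measures.

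Kcna6 (Kv1.6) was steady and well read, at 1465, 1576, 1792 and 1689, then 1496, 1567, 1702 and 1646. Every dusk library (1646 to 1792) was above every dawn library (1465 to 1576), at a dusk-to-dawn fold of only 1.12 (95% interval 1.0 to 1.25) and an edgeR adjusted p of 0.631. Its oligodendrocyte score term was not called. Kcna2 (Kv1.2) had 3 to 16 reads in its gene row, but its best-read exon (chr3:106906863-106919029, mm9) held 1341, 1496, 1262 and 1415, then 1637, 1542, 1225 and 1065. The gene row thus misses nearly all reads of that exon, 139-fold more on average, and its level per kb is not a level of Kcna2. In the fit of the best-read exon of each gene, that exon had a dusk-to-dawn fold of 0.82 and an edgeR adjusted p of 0.557. Altogether 6 channel genes had an exon with over 1.5 times the reads of the gene row.

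The Kv2 and silent subunits were led by Kcnf1 (Kv5.1), which held 500, 710, 472 and 536 reads, then 494, 338, 547 and 380. CT4 was highest in the first cycle and lowest in the second. The β subunit Kcnab2, which binds Kv1 channels, held 891, 981, 1020 and 949, then 757, 834, 1205 and 754. CT10 was highest in both cycles, with a day-to-night fold of 1.19 (95% interval 1.02 to 1.40) and an edgeR adjusted p of 0.596. Part of the Kcnab2 span is shared with Chd5, a better-read gene on the opposite strand.

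Among the inward rectifiers, Kcnj10 held 6557, 5513, 5582 and 6933 reads, then 7219, 6540, 5735 and 5461. Its day libraries (5513 to 6540) overlapped its night libraries (5461 to 7219), and CT16 gave 6933 in one cycle but 5461 in the other. The day-to-night fold was 0.89 (95% interval 0.77 to 1.02). Kcnj16, whose product Kir5.1 pairs with Kir4.1, held 571 to 753 reads and had the same edgeR 24-h adjusted p as Kcnj10, 0.663. Kcnj5 (Kir3.4, a G-protein-gated subunit) held 169, 281, 233 and 209, then 175, 212, 207 and 136. Its day libraries (207 to 281) were above 3 of the 4 night libraries, with a day-to-night fold of 1.34 (1.06 to 1.70) and an edgeR adjusted p of 0.532. Kcnj3 (Kir3.1) and Kcnj9, other subunits of these channels, had folds of 1.04 and 1.01.

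Some of the largest day-to-night folds of this class belonged to genes with few reads. Kcnj8 (Kir6.1, a subunit of ATP-sensitive channels found in mural cells) held 22, 50, 52 and 18 reads, then 18, 29, 39 and 33. Day libraries held 29 to 52 and night libraries 18 to 33. The day-to-night fold was 1.86 (95% interval 1.14 to 3.02), with an edgeR adjusted p of 0.512. The 7 mural markers summed to 184 to 265 CPM, lowest in CT4 replicate 1, and their part in this was not tested. Kcnj4 (Kir2.3) held 18, 83, 62 and 24, then 36, 15, 37 and 15. The 2 CT4 libraries differed most, 83 against 15, and the interval of its 2.11-fold difference ran from 1.09 to 4.09. Kcnj14 (Kir2.4) held 21 to 49 reads with a median of 26.5.

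The ether-à-go-go class was led by Kcnh1 (Kv10.1), with 560 to 739 reads (median 595.5) and a day-to-night fold of 1.02. Kcnh7 (Kv11.3) held 261, 419, 225 and 250, then 318, 299, 278 and 283, with a dusk-to-dawn fold of 0.80 (95% interval 0.64 to 0.99) and an edgeR adjusted p of 0.630. CT4 replicate 1 was its one high library. The opposite strand of Kcnh7 had a mean of 87.4 reads, 23.1% of the reads of both strands, and its span overlaps Gca. Kcnh5 (Kv10.2) held 32 to 71 reads (median 56.0). Kcnt1 (Slack, a sodium-activated channel) held 1426 to 1800 (median 1618.5), with both folds at 1.07. Kcnn2 (SK2, a calcium-activated channel) held 247, 147, 184 and 193, then 152, 144, 172 and 163, where only CT22 replicate 1 stands out.

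Intron reads, which come mostly from RNA not yet spliced, could be tested for 43 channel genes. None was called for a 24-h course, against 0.204% of all genes' introns, by edgeR or by DESeq2. At an unadjusted p under 0.05 there were 7 of 43 (16.3%), against 9.43%. Among the 7 were Kcnj14, Kcnd3, Kcnh5, Kcna6 and Kcnh6. For day against night 0 introns were called beside 0.106%, and 7 (16.3%) unadjusted beside 6.98%. For dusk against dawn 0 were called beside 0.147%, and 3 (6.98%) unadjusted beside 9.17%. DESeq2 called 0 in both. Kcnj14 introns held 14, 0, 4 and 9 reads, then 21, 9, 2 and 16, and those of Kcnh5 held 21, 4, 10 and 12, then 21, 4, 4 and 12. In both the day libraries had no more reads than the lowest night library, at counts too small for a firm fold. The share of all genes' introns with day and night libraries so placed was not counted. Kcnd3 introns held 45, 21, 19 and 10, then 39, 30, 17 and 27, with CT22 the highest in both cycles.

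Among the introns of the remaining genes known for SCN firing, those of Kcnc1 held 394, 332, 283 and 488 reads, then 342, 354, 383 and 438, with CT16 the highest in both cycles and a day-to-night fold of 0.81 (95% interval 0.67 to 0.98). The edgeR adjusted p of that 24-h course was 0.528. Kcnd2 introns fluctuated from 264 to 688, Kcnc2 introns from 5 to 40, Kcnk1 introns from 17 to 48 and Kcnd1 introns from 14 to 30. The highest Kcnd2 library was CT22 replicate 1, the one with the raised 5′ share.

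Intron and gene reads of the same library were also compared as a ratio. Over 24 h, 0 of 41 channel genes were called with limma, against 0.0186% of all genes, and 8 (19.5%) had an unadjusted p under 0.05, against 7.61%. The lowest limma adjusted p was 0.501, for Kcnma1, whose introns were high at CT10 of the first cycle while its gene reads were low. Kcnc1 followed with a limma adjusted p of 0.505. Exon usage gave 0 of 44 channel genes for day against night, where 0.0254% of all genes were called, and 0 for dusk against dawn, where 0.0169% were.

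No channel gene was called by edgeR for the second cycle in darkness against the first (0 of 77, and 0% of all genes). At an unadjusted p under 0.05 there were 3 (3.9%), against 3.57% of all genes. All 3 were lower in the second cycle, a direction in which 1.41% of all genes had such a p. They are Kcnn1 (SK1) at 0.66-fold, Kcne1l at 0.67-fold and Kcnip1 at 0.85-fold, each at an adjusted p of 0.999 in edgeR, and DESeq2 called 0. No day-night or dusk-dawn difference of a channel gene was called as differing between cycles, with the lowest edgeR adjusted p at 0.9998. Over all genes both of these tests also gave 0 calls, so the 0 does not set channel genes apart. Of 30 listed genes for partner proteins of these channels, such as Dpp6, Dpp10, Dlg2 and the Hcn pacemaker channels, 28 were tested. The edgeR 24-h, day-night and dusk-dawn tests each called 0 of them, against 0.112%, 0.105% and 0.0197% of all genes. At an unadjusted p under 0.05 there were 1, 3 and 1 of the 28, against 8.6%, 7.72% and 7.84%. Dlg2, a scaffold for Kv1 channels, had the lowest edgeR 24-h adjusted p of the 28, 0.375, and a dusk-to-dawn fold of 0.77.

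Promoter windows (250 bases before to 50 after the start, RefSeq, GRCm38.p6) were found for 54 of the 75 symbols, 77 windows in all. The canonical E-box CACGTG, the site that CLOCK and BMAL1 bind, was present in 7 windows (9.09%), against 7.15% of 32851 windows of that length. Its variant CACGTT was found on either strand in 1 window (1.3%, against 4.68%). The cAMP response element TGACGTCA and the D-box TTATGTAA were in none, against 1.79% and 0.938% of all windows. The windows with an E-box belong to Kcnab1, Kcne4, Kcnh4, Kcnj2, Kcnk5 and Kcnn4, none of which passed a test. Stretches of 26 bases from 5 of these genes are shown so that the site and its flanks can be read, with the E-box in capitals.
Kcnab1, chr3:65108842-65108867, plus strand: gaagagcattCACGTGttaatcagta
Kcnab1, chr3:65188048-65188073, plus strand: tcttacaaagCACGTGcctctagttt
Kcne4, chr1:78816847-78816872, plus strand: cctcccggaaCACGTGacgatgcatt
Kcnh4, chr11:100759850-100759875, minus strand: ggtgcggagcCACGTGgtgggcgcgg
Kcnj2, chr11:111066070-111066095, plus strand: gaagcgcagcCACGTGcgctccgatt
Kcnn4, chr7:24370120-24370145, plus strand: tgtctttgccCACGTGgatgaactct
A match is a description of these letters and not a bound site. Kcne4 held 15 to 49 reads, Kcnj2 132 to 225 and Kcnab1 444 to 743, with day-to-night folds of 1.09, 0.88 and 1.03.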

How the data were processed

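Per the labels' protocols, RNA of 3 mice was pooled for each time and libraries were made with a stranded polyA kit. The submitters' processing notes name STAR 2.3.0e and the build mm9. Deposited values are read counts of genes, introns, exons and junctions. Gene, intron and exon counts are labelled by strand, as sense or antisense, and junction counts are not. How reads were assigned to these, and what made column totals nearly equal, is not given in the sources used here. Totals of introns (4196931 to 4199146) and exons (25232810 to 25232813) were equalised as well, so shifts of a whole table between libraries cannot be seen. The authors' tables also give an adjusted p-value, a q-value and a lag in hours from a JTK test, per the file headers. Times come from the titles, although the labels give a start of collection at CT18 and the first title is CT22. The exon and intron tables of the opposite strand were left out.

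The deposited counts were fitted in edgeR 4.0.16 (TMM scaling, quasi-likelihood F test, Benjamini-Hochberg adjustment at 0.05 over all genes) in R 4.3.3, for features with at least 10 reads in at least 2 libraries. Log2 ratios of intron to gene reads, unscaled, were tested with limma 3.58.1 after adding 0.5 reads to each. Intron reads were summed over introns free of exons of their gene. Peak time and trough-to-peak ratio were computed from both terms of the model. Intervals in the text are 95% intervals of the fit, not adjusted for the number of genes. Levels per kb use the summed exon length. DESeq2 1.42.0, other scalings and filters, further terms and leaving out each library were alternatives. The tests were tested on simulated data. The members and gene lists were chosen with earlier results of these data known. The text gives values for 7 channel genes known for SCN firing, the 10 and the 5 with the lowest p for genes and introns, the best-read per kb of each of 12 classes, and others as counts. Kcnmb1, Kcna2 and the parts of Kcnk2 were added after their values were seen. Single values of some genes that this rule names are not reported here.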

Additional observations from a re-analysis of the deposited data

How the results depend on the processing

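Without a filter on low counts, edgeR called 1 channel gene, Kcna1, for the 24-h course (adjusted p = 0.0146) and 1 for dusk against dawn, while all genes gave 362 and 239 calls against 17 and 3. All other alternatives gave 0 channel genes, for genes (day-night and cycle included), introns, exon usage and the intron-to-gene ratio, as did each fit without 1 library (0 to 0). Over all genes, the 24-h count ran from 7 (without CT10 replicate 2) to 362, with 98 by DESeq2, 43 without CT16 replicate 1 and 27 with a 12-h term. The day-night count ran from 4 to 137 (16 as reported), the dusk-dawn count from 3 to 239, the 24-h intron count from 7 to 107 (25 as reported), exon usage from 1 to 71 (5 as reported) and the ratio from 1 to 8 (2 as reported). The Kcnma1 adjusted p in these fits ran from 0.147 to 0.841, with a log2 ratio of 1.23 to 1.32.

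For genes with a small fitted ratio, the peak moved by over 6 h in 11 of 405 refits, and the cause was not tested. With the oligodendrocyte score as a term, the log2 ratios of these were 0.28 for Kcnh1 and 0.27 for Kcnf1. Without CT4 replicate 1 they were 0.13 and 0.28, and Kcnf1 had 0.032 without CT16 replicate 2. Kcnmb4 had 0.34 without CT22 replicate 1, Kcnip4 0.089 without CT16 replicate 1 and Kcnk1 0.014 without CT4 replicate 2. Over all fits without 1 library, the log2 ratio ran from 0.22 to 0.45 for Kcnmb4, 0.036 to 0.16 for Kcnip4, 0.014 to 0.32 for Kcnk1, 0.032 to 0.57 for Kcnf1 and 0.028 to 0.28 for Kcnh1. With the best-read exon in place of the gene count, chosen after seeing the data, Kcnh1 had 0.086, Kcnip4 0.039 and Kcnt1 0.53. With 2 libraries a time, the median distance from the day-to-night fold to the end of its unadjusted 95% interval was 1.63-fold for genes under 100 reads. The tests of single exons, junction sums, exons outside the 3′-most one and the oligodendrocyte score term were also chosen after seeing the data.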
